A study of Homo sapiens with 30 samples.

Results

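Cells build purine and pyrimidine nucleotides from phosphoribosyl pyrophosphate, amino acids and one-carbon units carried on folate, or salvage them from free bases and nucleosides. The folate enzymes of the mitochondrion and the cytosol move carbon from serine to purines and thymidylate, and the deoxynucleotides made from these pools feed DNA replication. Several genes of these pathways, CAD among them, are long known as targets of the transcription factor MYC, which binds DNA with its partner MAX at E-boxes (CACGTG).

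The gene set was named by pathway: 32 symbols, of which 31 were in a PRO-Seq table of 20367 genes. NME1, a nucleoside diphosphate kinase gene, was listed there only as the readthrough NME1-NME2, so no value is given for it alone. Of the 31, 30 passed the filter on low counts with 11171 genes in all. PRPS2 did not, having 5 to 18 reads at its promoter in each sample. The genes fall into purine synthesis (PRPS1, PRPS2, PPAT, GART, PFAS, PAICS, ADSL, ATIC, IMPDH1, IMPDH2, GMPS and ADSS), pyrimidine synthesis (CAD, DHODH, UMPS, CTPS and CTPS2), deoxynucleotide synthesis (RRM1, RRM2, TYMS, DUT, DTYMK, TK1 and DCK), purine salvage (HPRT1 and APRT) and one-carbon enzymes (SHMT1, SHMT2, MTHFD1, MTHFD2 and MTHFD1L).

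All samples were G401 cells, a malignant rhabdoid tumor line that lacks SMARCB1, the gene for the SWI/SNF subunit SNF5. The cells were transduced with lentiviral vectors and selected, and TET-inducible EGFP (the control), OmoMYC (a MYC-derived dominant negative that interferes with MYC:MAX) or SNF5 was then switched on by doxycycline at 1 μg/ml, given for 24 h. Doxycycline was thus common to all groups, and each group was a selected pool of 1 line. PRO-Seq, which counts engaged RNA polymerase by run-on, and ATAC-Seq, which cuts open chromatin with a transposase, had 3 samples per construct, and MYC ChIP-Seq had 2. The labels do not say that same-construct samples came from separate transductions, so the tests measure the spread between these samples.

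Gene body totals were 28388012 to 46859674 reads per sample and promoter-proximal totals 517824 to 3381190, so promoter values were the less precise. SMARCB1 had 1 to 6 gene body reads in the EGFP and OmoMYC samples and 2870, 4467 and 3440 in the SNF5 samples, as the labels state. MYC gene body density was 23.5, 28.2 and 19.8 RPKM (reads per kb of gene body per 1000000 effective gene body reads) with EGFP, 33.6, 87.3 and 30.3 with OmoMYC and 14.8, 19.5 and 17.1 with SNF5, where reads of the OmoMYC transgene and of MYC cannot be told apart. Samples of one replicate number deviated together, so all tests below compare constructs within a number. In gene bodies replicate 3 stood apart. Across all genes the gene body ratios of SNF5 to EGFP correlated between replicates 1 and 2 with r = 0.88, but with replicate 3 at 0.54 and 0.56. Those of OmoMYC to EGFP had r = 0.83 against 0.49 and 0.45. Between replicates 1 and 2 the squared difference of these ratios was 3.12 and 3.08 times the counting variance (median over genes). Against replicate 3 it was 15.2 and 13.5 with SNF5 and 8.75 and 9.46 with OmoMYC. Replicates 1 and 2 were kept as separate samples. The excess cannot show that they were separate cultures, since preparations of a single culture can also exceed counting variance. Results are thus also given with replicates 1 and 2 summed and without replicate 3. At promoters, correlations were lowest with replicate 1, whose samples had 517824 to 671718 promoter reads. Promoter ratios of SNF5 to EGFP gave r = 0.23 (1 and 2), 0.07 (1 and 3) and 0.48 (2 and 3). Those of OmoMYC to EGFP gave 0.22, 0.03 and 0.45. In the same order, their squared differences were 2.76, 3.33 and 4.17 times the counting variance with SNF5. With OmoMYC they were 2.57, 3.01 and 3.19 times.

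MYC peaks lay at the start of most of these genes in control cells. A peak counted when its summit was within 1 kb of the RefSeq start in the table (hg19). Peaks were found in both EGFP samples at 13 of 31 genes, against 4.31% of the 20367 genes in the table. That base includes genes dropped for low counts, and of the 11171 tested genes 823 had a peak in both. In EGFP replicate 2, whose list held 5396 peaks, 26 of 31 genes had one (23.2% of all genes). In EGFP replicate 1, with 940 peaks, 13 did (4.35%). PRPS1, PRPS2, CTPS2, RRM1 and SHMT1 had none in either sample. The lists hold no reads, so no test was made, and a gene without a peak may be bound below the calling threshold. The paper reports the sequencing depth of each library, which was not used here.

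E-boxes beneath these peaks are shown for most genes at which the peak and the motif coincide, with a single motif each. DTYMK and PPAT, which shares the PAICS peak, are not shown. PPAT, PAICS, ADSL, ATIC and CAD each had a further CACGTG near a summit that is left out. Each line gives 30 bases of the GRCh37 sequence on the strand of the gene, with CACGTG (its own reverse complement, searched within 100 bp of a summit) in capitals.
PFAS: gagtgcatcttcCACGTGagtatagttacc
PAICS: tgagctcgcggcCACGTGcgagccgcgaaa
MTHFD1L: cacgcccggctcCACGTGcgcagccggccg
MTHFD1: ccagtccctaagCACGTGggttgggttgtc
ATIC: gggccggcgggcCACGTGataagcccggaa
CAD: cgcgccgttagcCACGTGgaccgactccgg
ADSL: ggcccgccccagCACGTGccgggctctgtt
DHODH: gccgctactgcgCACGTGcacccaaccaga
DCK: cgccccggccttCACGTGacctggcgtgcg
SHMT2: gaccgcccatttCACGTGgcattaggggag

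These stretches lie at chr17:8152643-8152672 for PFAS (+ strand), chr4:57302545-57302574 for PAICS (+), chr6:151187456-151187485 for MTHFD1L (+), chr14:64855044-64855073 for MTHFD1 (+) and chr2:216176724-216176753 for ATIC (+). Those of CAD at chr2:27440307-27440336, ADSL at chr22:40742756-40742785, DHODH at chr16:72042472-72042501, DCK at chr4:71859238-71859267 and SHMT2 at chr12:57623819-57623848 are also on the + strand. The motif began 61 bp past the start of CAD and 59 bp past that of PFAS, in both cases in an exon that GENCODE annotates as untranslated. It lay in an intron of ADSL, PAICS, SHMT2 and MTHFD1L (264, 642, 475 and 653 bp past the start), and outside the annotated transcript at DCK (15 bp upstream) and DHODH (159 bp upstream). At ATIC and MTHFD1 the motif began 57 and 297 bp past the RefSeq start, yet outside the canonical transcript of GENCODE. All these annotations refer to that canonical transcript, and other transcripts of a gene were not considered. Starts of the genes equalled a GENCODE start at 11 of 31 and lay within 100 bp of one at 28 of 31.

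CACGTG was found near at least 1 EGFP summit at 9 of the 13 genes bound in both samples and at 3 of the 13 bound in replicate 2 alone. GART, CTPS, APRT and MTHFD2 had no CACGTG there. Of the 12 separate regions behind the 13 genes, 6 held it at the replicate 1 summit (51.3% of all replicate 1 summits did) and 7 at the replicate 2 summit (26.1%), while 5.91% of windows of that size centred on the table's starts held it. Read against all MYC summits, then, the replicate 1 share at these genes was close to the background. In RefSeq promoter sequences of GRCh38 (300 bases around the start), 7 of the 28 matched genes held the motif, or 25.0%, against 8.77% of 27305 genes.

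The strongest peaks in EGFP replicate 1 were at one-carbon genes. Fold enrichment, as the peak caller gave it, was 11.8 and 13.7 in EGFP replicates 1 and 2 at MTHFD1L, a mitochondrial enzyme that releases formate from the folate carrier. At MTHFD2, which carries out the preceding mitochondrial steps, it was 10.0 and 16.9. PPAT, which commits phosphoribosyl pyrophosphate to purines, and PAICS, which acts later in that pathway, start 113 bp apart on opposite strands. They shared 1 peak, of 8.21 and 15.9. Among the other purine genes, ATIC (the last steps to IMP) had 8.14 and 8.88, PFAS (formylglycinamidine ribonucleotide synthase) 7.20 and 11.9, GART (a trifunctional enzyme) 6.48 and 7.84, and ADSL (adenylosuccinate lyase) 5.65 and 7.46. APRT, which salvages adenine, had 7.21 and 10.4. The pyrimidine genes CTPS (CTP synthase), CAD (the enzyme of the opening steps) and DHODH (dihydroorotate dehydrogenase) had 6.37 and 9.07, 5.51 and 11.6, and 4.05 and 7.01, and DCK (deoxycytidine kinase) 4.98 and 4.33. Replicate 2 had the higher value at every one of these genes except DCK.

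Fewer of these starts had a peak with SNF5, and none with OmoMYC. In SNF5 replicate 1 (137 peaks), 5 of 31 genes had one, against 0.614% of all genes: MTHFD1L at 5.72, PPAT and PAICS at 5.58 (the shared peak), PFAS at 4.98, and MTHFD1 (the trifunctional cytosolic enzyme) at 4.31. All 5 held CACGTG near the summit. In SNF5 replicate 2 (27 peaks) 0 of 31 had one, against 0.0786% of all genes. Both OmoMYC lists held a single placeholder line and no peak. The number of peaks in a list moved with these counts, and its part in them was not tested.

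**Figure D1:**
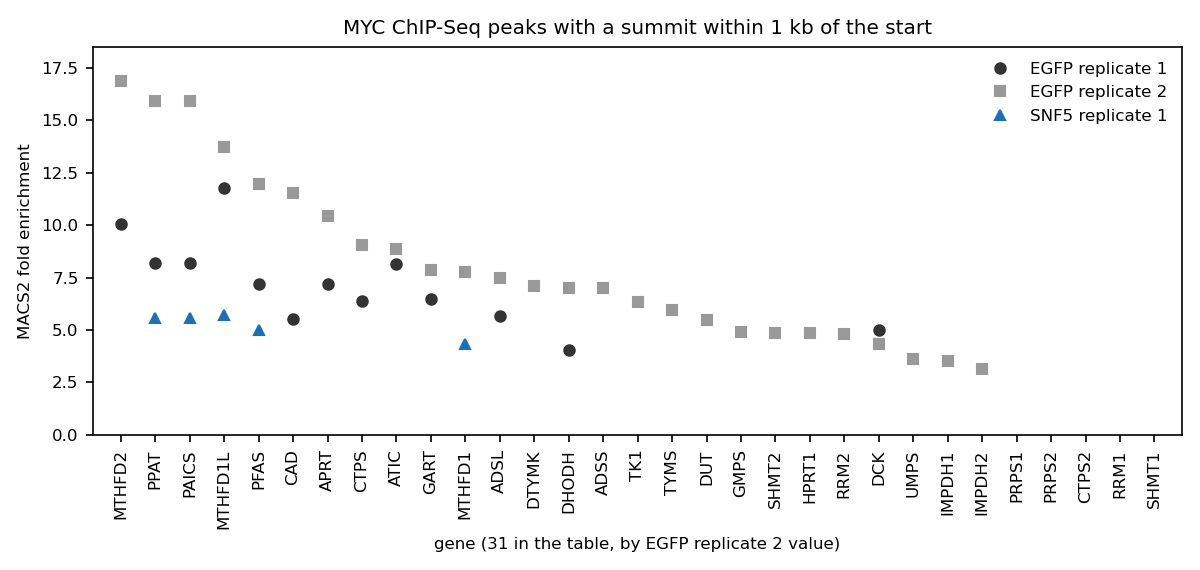
MYC ChIP-Seq fold enrichment (vertical axis, as given by MACS2, linear) of the peak with a summit within 1 kb of the start, for each of the 31 genes. Circles are EGFP replicate 1, squares EGFP replicate 2 and triangles SNF5 replicate 1, and a missing symbol means no peak. MTHFD2 is highest in replicate 2 at 16.9, triangles appear at 5 genes, and the 5 genes on the right have no peak.

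Starts of these genes were mostly open in all groups. An ATAC-Seq peak overlapped the 1 kb on either side of a GRCh38 start in all 9 samples at 19 of 31 genes (28.1% of 18750 genes with such a start). Genes dropped from the PRO-Seq tests for low counts are part of that base. All 3 samples had a peak at 20 genes with EGFP, 19 with OmoMYC and 25 with SNF5, against 35.0%, 31.2% and 50.8% of all genes, so the SNF5 share was the highest in both. ADSL was open in 0, 2 and 3 of 3 samples with EGFP, OmoMYC and SNF5, CTPS2 in 0, 1 and 3, and CAD in 0, 2 and 2. APRT and HPRT1 were open in 1, 1 and 3, and PFAS, IMPDH1, IMPDH2 and UMPS in 1, 1 and 2. PRPS2 was open in 2, 1 and 3 and SHMT1 in 3, 2 and 3, while SHMT2 had no peak in any sample. The lists held 9208 to 17817 peaks with EGFP, 7260 to 23684 with OmoMYC and 22722 to 33596 with SNF5, so more was called in the SNF5 samples genome-wide, and the part of this in the counts above was not tested.

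Transcription of the set in control cells spanned a wide range. Mean gene body density over the EGFP samples had a median of 3.52 RPKM over the 30 tested genes, against 1.79 over all 11171. IMPDH2, the main IMP dehydrogenase of the guanine branch, was the highest at 11.6 ± 2.42 RPKM (SD, n = 3). APRT followed at 9.03 ± 1.57 and CTPS at 8.04 ± 1.25. The lowest were CTPS2 at 0.499 ± 0.0403, the salvage gene HPRT1 at 0.978 ± 0.106 and DCK at 1.16 ± 0.123. Paralogs differed: CTPS lay far above CTPS2, IMPDH2 above IMPDH1 (1.62 ± 0.126), and SHMT2 (mitochondrial serine hydroxymethyltransferase, 5.70 ± 0.475) above its cytosolic counterpart SHMT1 (1.83 ± 0.310), and in none of these 3 pairs did the EGFP samples overlap. PRPS1 and PRPS2, at 1.37 ± 0.128 and 1.20 ± 0.309, overlapped.

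With SNF5, gene body polymerase was lower at 12 of the 30 tested genes and higher at none (edgeR's quasi-likelihood test, Benjamini-Hochberg adjusted p under 0.05). Over all genes, 22.1% were called lower and 12.4% higher. Fold changes had a median of -0.21 on the log2 scale, against -0.08 over all genes, and ran from -0.53 (SHMT2) to 0.19 (PRPS1, not called). In the separate ratios of each replicate number, 22 of 30 genes were lower in all 3, against 39.0% of all genes. With OmoMYC, 5 of 30 were lower and 0 higher (7.27% and 5.16% of all genes), with a median of -0.19 against -0.03, and 21 of 30 were lower in all 3 numbers (33.1%). For 0 genes called higher, 0 positive changes in either comparison had an unadjusted p under 0.05, and DESeq2 called 0 higher. The comparisons share the EGFP samples, so their values are set side by side and not counted as agreement.

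The number of calls rested on the replicates used. Calls over all genes moved too. The closing section gives their ranges with a replicate left out, but not for each setting and not for summed replicates. The counts below are thus not read against the shares above, nor as results about these genes. Without replicate 3 the calls were 24 (SNF5) and 20 (OmoMYC), without replicate 1 they were 1 and 0, without replicate 2 they were 0 and 0, and with replicates 1 and 2 summed 1 and 0. The median change moved less: it was -0.18, -0.24 and -0.23 in replicates 1, 2 and 3 with SNF5. With OmoMYC it was -0.24 and -0.28 in replicates 1 and 2 but -0.03 in replicate 3, where the median over all genes was -0.01.

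**Figure D2:**
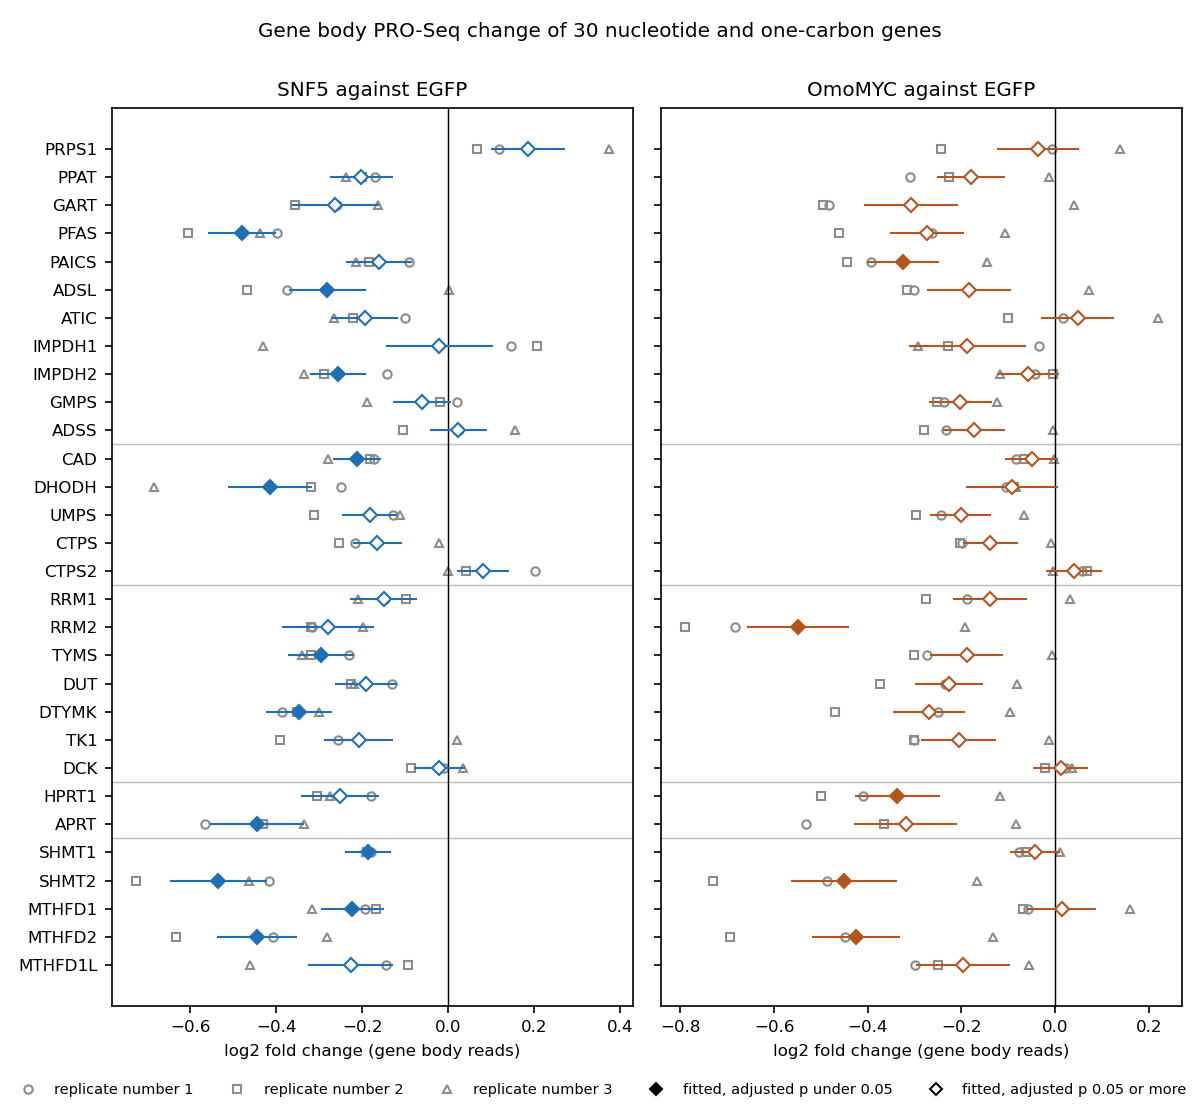
Change in gene body PRO-Seq reads on the log2 scale (horizontal axis) for the 30 tested genes, grouped from top to bottom as purine synthesis, pyrimidine synthesis, deoxynucleotide synthesis, salvage and one-carbon enzymes, with SNF5 on the left and OmoMYC on the right. Diamonds are fitted changes with their standard errors, filled where the adjusted p is under 0.05, and grey symbols are the ratios of each replicate number. Filled diamonds number 12 and 5, all below 0, and grey triangles (replicate 3) sit nearer 0 than the other symbols for most genes with OmoMYC.

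Of the one-carbon enzymes, 4 of 5 were called lower with SNF5 and 2 of 5 with OmoMYC (22.1% and 7.27% of all genes). SHMT2, the mitochondrial enzyme that takes a carbon from serine, had 5.49, 5.37 and 6.24 RPKM with EGFP, 4.11, 3.24 and 4.53 with SNF5 and 3.92, 3.24 and 5.56 with OmoMYC. The EGFP and SNF5 samples did not overlap, while OmoMYC replicate 3 reached the EGFP range. SHMT2 fell by 0.53 on the log2 scale with SNF5 (SE 0.113, adjusted p = 0.00821), and by 0.45 with OmoMYC (SE 0.113, adjusted p = 0.0378). MTHFD2, which acts next in the mitochondrion, had 5.09, 6.39 and 4.56 RPKM with EGFP, 3.84, 4.12 and 3.75 with SNF5 and 3.73, 3.95 and 4.16 with OmoMYC. All 6 SNF5 and OmoMYC samples lay below the lowest EGFP sample. MTHFD2 fell by 0.44 with SNF5 (SE 0.0936, adjusted p = 0.00821) and by 0.42 with OmoMYC (SE 0.0939, adjusted p = 0.0281).

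The other one-carbon genes had smaller changes than SHMT2 and MTHFD2, and the differences between genes were not tested. SHMT1, the cytosolic serine enzyme, had 2.06, 1.47 and 1.94 RPKM with EGFP and 1.82, 1.29 and 1.70 with SNF5, lower in each number by nearly the same ratio (0.884, 0.878 and 0.876) although the groups overlapped. It fell by 0.19 on the log2 scale (SE 0.0536, adjusted p = 0.0272), and with OmoMYC (1.95, 1.41 and 1.96 RPKM) the change was -0.04 (adjusted p = 0.613). MTHFD1 had 2.86, 2.52 and 2.61 RPKM with EGFP, 2.50, 2.24 and 2.10 with SNF5 and 2.74, 2.40 and 2.91 with OmoMYC. Its SNF5 samples all lay below the lowest EGFP sample. MTHFD1 fell by 0.22 with SNF5 (SE 0.0731, adjusted p = 0.0429), while with OmoMYC the change was 0.01 (adjusted p = 0.912). MTHFD1L, with the highest MYC enrichment of replicate 1, had 2.26, 2.02 and 2.62 RPKM with EGFP, 2.04, 1.89 and 1.90 with SNF5 and 1.84, 1.69 and 2.52 with OmoMYC. Its changes of -0.23 and -0.20 did not pass (adjusted p = 0.106 and 0.202).

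**Figure D3:**
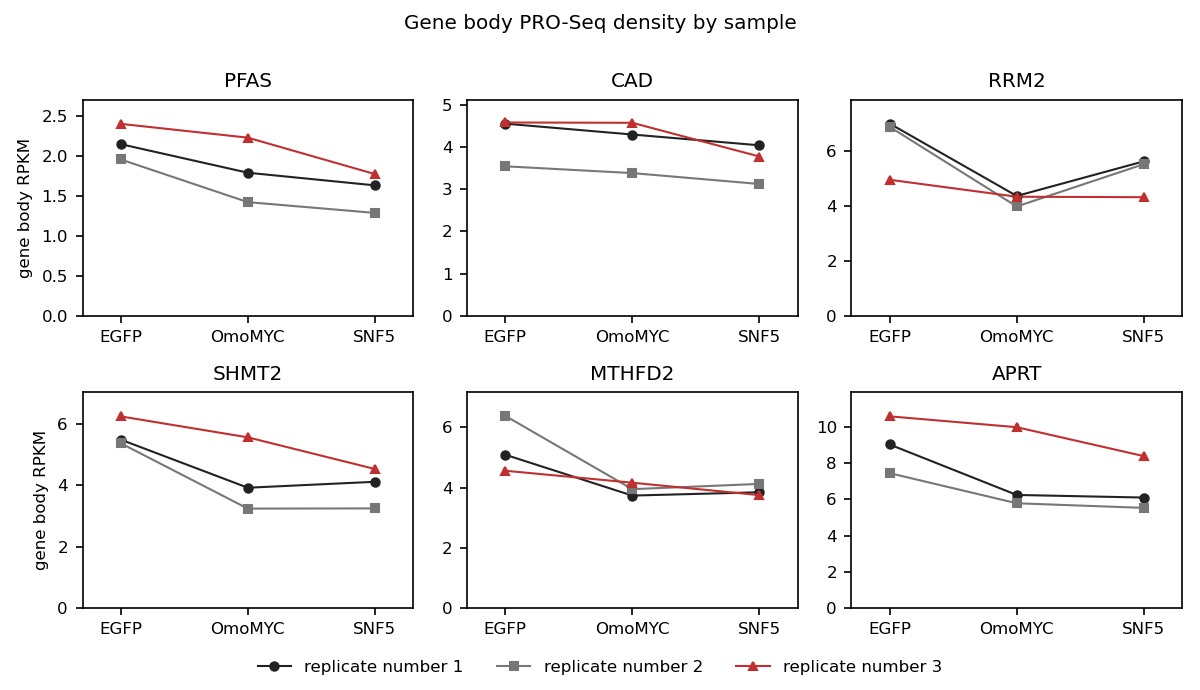
Gene body density in RPKM (vertical axis, from 0) in each of the 9 PRO-Seq samples for PFAS, CAD, RRM2, SHMT2, MTHFD2 and APRT. Lines join the EGFP, OmoMYC and SNF5 samples of one replicate number and do not stand for time. SNF5 lies below EGFP on every line, and RRM2 is lower with OmoMYC than with SNF5 in replicates 1 and 2.

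Among the 11 tested genes of purine synthesis, 3 were lower with SNF5 (27.3%) and 1 with OmoMYC (9.09%). These shares were near those of all genes, at 22.1% and 7.27%. PFAS had 2.15, 1.95 and 2.40 RPKM with EGFP and 1.63, 1.28 and 1.77 with SNF5, with no overlap. It fell by 0.48 on the log2 scale (SE 0.0791, adjusted p = 0.0031), a change of -28.3%, which was the smallest adjusted p of the set, and it remained called with replicates 1 and 2 summed (adjusted p = 0.0429). With OmoMYC, PFAS had 1.79, 1.42 and 2.23 RPKM, a change of -0.27 that missed the threshold (adjusted p = 0.0532). IMPDH2 had 10.5, 9.93 and 14.4 RPKM with EGFP, 9.55, 8.13 and 11.4 with SNF5 and 10.2, 9.89 and 13.2 with OmoMYC. The groups overlapped, but each SNF5 sample lay below the EGFP sample of its number. IMPDH2 fell by 0.26 with SNF5 (SE 0.0648, adjusted p = 0.0166), and the OmoMYC change was -0.06 (adjusted p = 0.57). ADSL had 6.04, 5.07 and 5.65 RPKM with EGFP, 4.66, 3.67 and 5.66 with SNF5 and 4.90, 4.07 and 5.93 with OmoMYC. ADSL fell by 0.28 with SNF5 (SE 0.0894, adjusted p = 0.0387), with a lower value in replicates 1 and 2 but a ratio of 1.00 in replicate 3.

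PAICS, the gene called with OmoMYC, had 5.06, 5.58 and 4.37 RPKM with EGFP, 3.85, 4.11 and 3.95 with OmoMYC and 4.75, 4.92 and 3.77 with SNF5. Every OmoMYC sample lay below the lowest EGFP sample, and PAICS fell by 0.32 (SE 0.0767, adjusted p = 0.0329), while the SNF5 change of -0.16 did not pass (adjusted p = 0.13). PPAT, on the other side of the shared MYC peak, had 2.85, 2.71 and 2.64 RPKM with EGFP, 2.54, 2.36 and 2.24 with SNF5 and 2.30, 2.32 and 2.61 with OmoMYC. Neither of its changes passed (-0.20 with adjusted p = 0.0595, and -0.18 with adjusted p = 0.124). GART had 3.11, 3.00 and 2.90 RPKM with EGFP, 2.60, 2.35 and 2.59 with SNF5 and 2.23, 2.13 and 2.98 with OmoMYC. The GART changes of -0.26 and -0.31 did not pass (adjusted p = 0.0714 and 0.073), and replicate 3 with OmoMYC lay within the EGFP range. ATIC, at 4.34, 4.24 and 3.50 RPKM with EGFP, 4.05, 3.64 and 2.91 with SNF5 and 4.39, 3.96 and 4.07 with OmoMYC, gave -0.19 and 0.05 (adjusted p = 0.0826 and 0.701). PRPS1, which makes phosphoribosyl pyrophosphate, GMPS, ADSS and IMPDH1 ranged from -0.06 to 0.19 with SNF5 and from -0.20 to -0.04 with OmoMYC, with no call. PRPS2, tested only with the filter on low counts removed, gave -0.51 and -0.61 in gene body reads (adjusted p = 0.0198 and 0.0308).

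Pyrimidine synthesis had 2 of 5 genes called lower with SNF5 and 0 of 5 with OmoMYC (22.1% and 7.27% of all genes). With OmoMYC 2 of these genes had an unadjusted p under 0.05 and DESeq2 called 0. CAD had 4.57, 3.55 and 4.59 RPKM with EGFP, 4.05, 3.13 and 3.78 with SNF5 and 4.31, 3.39 and 4.59 with OmoMYC. CAD fell by 0.21 with SNF5 (SE 0.0563, adjusted p = 0.0201), with ratios of 0.887, 0.882 and 0.824 in the 3 numbers, and its OmoMYC change was -0.05 (adjusted p = 0.567). DHODH had 2.25, 1.81 and 2.18 RPKM with EGFP, 1.89, 1.45 and 1.36 with SNF5 and 2.09, 1.71 and 2.06 with OmoMYC. It fell by 0.41 with SNF5 (SE 0.0987, adjusted p = 0.0131), the ratio being lowest in replicate 3 at 0.622. UMPS, which completes UMP, and CTPS gave -0.18 and -0.16 with SNF5 and -0.20 and -0.14 with OmoMYC, and CTPS2 0.08 and 0.04, none of them called.

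Genes of deoxynucleotide synthesis included the largest OmoMYC change of the 30 tested genes. RRM2, the small subunit of ribonucleotide reductase, had 6.98, 6.87 and 4.94 RPKM with EGFP, 4.35, 3.97 and 4.32 with OmoMYC and 5.61, 5.51 and 4.31 with SNF5. All OmoMYC samples lay below the EGFP samples, and RRM2 fell by 0.55 (SE 0.109, adjusted p = 0.0227), a change of -31.6%, although the ratio was 0.875 in replicate 3 against 0.623 and 0.578. Its SNF5 change of -0.28 did not pass (adjusted p = 0.0721), and the large subunit RRM1 gave -0.15 and -0.14 (adjusted p = 0.168 and 0.249). TYMS, thymidylate synthase, had 6.25, 6.63 and 6.18 RPKM with EGFP and 5.33, 5.31 and 4.88 with SNF5, with no overlap. It fell by 0.30 with SNF5 (SE 0.0774, adjusted p = 0.0188), and with OmoMYC (5.17, 5.38 and 6.16 RPKM) the change was -0.19 (adjusted p = 0.127). DTYMK, thymidylate kinase, had 6.39, 8.19 and 5.69 RPKM with EGFP, 4.89, 6.42 and 4.62 with SNF5 and 5.37, 5.92 and 5.32 with OmoMYC. DTYMK fell by 0.35 with SNF5 (SE 0.0765, adjusted p = 0.00994) and gave -0.27 with OmoMYC, which did not pass (adjusted p = 0.0511). DUT (dUTPase), TK1 (thymidine kinase) and DCK were not called, at -0.19, -0.21 and -0.02 with SNF5 and -0.23, -0.21 and 0.01 with OmoMYC. The readthrough NME1-NME2, whose reads could come from NME1 or NME2, fell by 0.36 with SNF5 (adjusted p = 0.00508) and by 0.28 with OmoMYC (adjusted p = 0.0338).

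Both salvage genes had a call, in different comparisons, where 22.1% (SNF5) and 7.27% (OmoMYC) of all genes were lower. APRT had 9.04, 7.45 and 10.6 RPKM with EGFP, 6.10, 5.53 and 8.39 with SNF5 and 6.25, 5.79 and 9.99 with OmoMYC. The groups overlapped through replicate 3, and each sample of both constructs lay below the EGFP sample of its number. APRT fell by 0.44 with SNF5 (SE 0.110, adjusted p = 0.0152), and gave -0.32 with OmoMYC (adjusted p = 0.0841). The counted body of APRT is 1466 bp and held 251 to 717 reads per sample. HPRT1, which salvages hypoxanthine and guanine, had 0.990, 1.08 and 0.866 RPKM with EGFP, 0.746, 0.761 and 0.797 with OmoMYC and 0.875, 0.872 and 0.716 with SNF5. All OmoMYC samples lay below the lowest EGFP sample. HPRT1 fell by 0.34 with OmoMYC (SE 0.0907, adjusted p = 0.0445) and gave -0.25 with SNF5 (adjusted p = 0.058).

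Set directly against each other, SNF5 and OmoMYC differed at 0 of 30 genes in gene body reads by edgeR (16.1% of all genes), where 10 had an unadjusted p under 0.05 and DESeq2 called 3. The lowest adjusted p was that of DHODH, lower with SNF5 by 0.32 on the log2 scale (SE 0.0989, adjusted p = 0.0567), followed by MTHFD1 (-0.24, adjusted p = 0.058) and ATIC (-0.24, adjusted p = 0.0663). Towards higher values with SNF5, ADSS gave 0.20 (adjusted p = 0.0763), PRPS1 0.22 (adjusted p = 0.114) and RRM2 0.27 (adjusted p = 0.125). Without replicate 3, 15 genes were called, 6 lower with SNF5 and 9 higher. The share of all genes called in that setting is not given here, so this count is not read as a result about these genes.

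Genes with and without a MYC peak were also set side by side. The 13 genes bound in both EGFP samples had a median gene body change of -0.23 with SNF5 and -0.18 with OmoMYC, with 6 and 2 calls. The 13 bound in replicate 2 alone had -0.22 and -0.20, with 5 and 3 calls. The 4 tested genes with no peak (PRPS1, CTPS2, RRM1 and SHMT1) had -0.03 and -0.04, with 1 call, SHMT1 with SNF5. Of the 823 tested genes of the whole table with a MYC peak in both EGFP samples, 43.5% were lower with SNF5 and 22.7% with OmoMYC, at medians of -0.20 and -0.15, so the bound nucleotide genes had shares like those of bound genes in general. Of the 10348 tested genes without a peak in both, those with a peak in replicate 2 alone included, 20.4% were lower with SNF5. With OmoMYC 6.04% were, and the medians were -0.07 and -0.02. The 1 call among 4 genes cannot be set apart from these shares. No test of these medians was made, since genes are not replicates.

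At the promoter, 0 of 30 genes were called in either comparison (edgeR; 4.31% of all genes with SNF5 and 1.83% with OmoMYC). With SNF5 6 genes had an unadjusted p under 0.05, with OmoMYC 4, and DESeq2 called 0 in both. Standard errors on the log2 scale were 0.204 to 0.361, against 0.0536 to 0.125 in gene bodies, so small changes were not detectable here. The median over these genes was -0.08 with SNF5 and 0.06 with OmoMYC (-0.05 and 0.12 over all genes). When promoter counts were scaled by their own size factors instead of those of gene bodies, the median of all genes with OmoMYC moved from 0.12 to -0.03 and that of these genes from 0.06 to -0.09, so its sign depended on the scaling, and SNF5 calls became 4. Over all genes this scaling turned the split of lower and higher calls from 191 and 291 to 589 and 446 with SNF5, and from 19 and 185 to 112 and 123 with OmoMYC.

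The pausing index, the promoter-proximal density over the gene body density, rose at APRT in both comparisons and at MTHFD2 with OmoMYC. These were 1 of 30 genes with SNF5 (2.02% of all genes were called higher) and 2 of 30 with OmoMYC (2.18%), and counts this small cannot be set apart from the background. In all, 4 (SNF5) and 9 (OmoMYC) changes had an unadjusted p under 0.05, and DESeq2 called 0 and 1. The index itself depended on the replicate number: its median over these genes was 8.26, 39.4 and 24.5 in EGFP replicates 1, 2 and 3, so it is compared within a number. APRT had 2.31, 10.0 and 4.05 with EGFP, 2.92, 20.6 and 8.56 with SNF5 and 3.25, 25.1 and 7.32 with OmoMYC. Within each number both constructs lay above EGFP. The log2 change was 0.87 with SNF5 (SE 0.261, adjusted p = 0.0435) and 0.93 with OmoMYC (SE 0.261, adjusted p = 0.0403), from 35 to 215 promoter reads per sample. MTHFD2 had 21.3, 111 and 86.2 with EGFP, 40.8, 274 and 116 with OmoMYC and 29.4, 186 and 96.8 with SNF5, again above EGFP in every number. Its change was 0.89 with OmoMYC (SE 0.213, adjusted p = 0.0139) and 0.46 with SNF5 (adjusted p = 0.23). Summing replicates 1 and 2 kept the APRT call with SNF5 (adjusted p = 0.03) and ended those with OmoMYC (adjusted p = 0.0582 for APRT and 0.104 for MTHFD2). In promoter ratios replicates 2 and 3 correlated more than 1 and 2, so this sum does not address the pair with the highest correlation there.

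**Figure D4:**
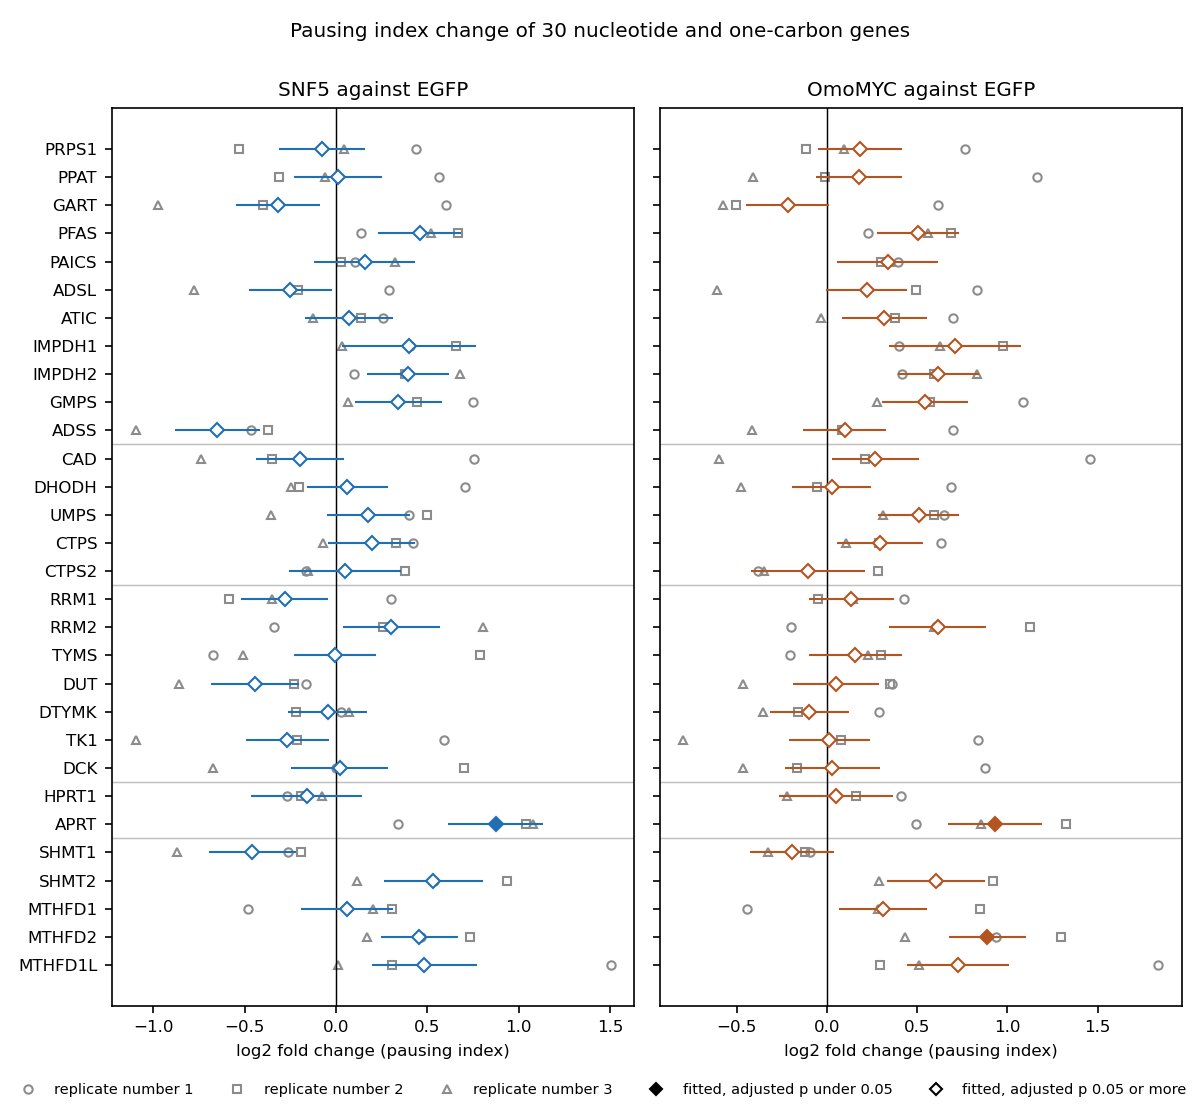
Change in the pausing index on the log2 scale (horizontal axis) for the 30 tested genes, in the same order and with the same symbols as the plot of gene body changes. APRT is filled on both sides and MTHFD2 on the OmoMYC side, and grey symbols of one gene are spread wider than for gene bodies.

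The other 28 genes were not called, and among them the SNF5 changes ran from -0.65 (ADSS) to 0.53 (SHMT2). Over all 30, the median was 0.05 with SNF5 and 0.24 with OmoMYC, against 0.01 and 0.14 over all genes. With OmoMYC 4 of 30 changes were below 0. With promoter counts scaled by their own factors this was 11 of 30, at a median of 0.06 (-0.01 over all genes), and the split of all lower and higher calls went from 9 and 243 to 61 and 123. One-carbon enzymes had the highest median, at 0.46 with SNF5 and 0.60 with OmoMYC, with 1 call of 5, MTHFD2.

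Neighbouring pathways gave the following counts in gene body reads. Over all genes, 22.1% were lower and 12.4% higher with SNF5, and 7.27% and 5.16% with OmoMYC. Of 22 other folate and one-carbon genes tested, 4 were lower (18.2%) and 1 higher (4.55%) with SNF5. With OmoMYC 4 were lower (18.2%) and 0 higher. PSAT1, of serine synthesis, fell by 0.47 with SNF5 and by 0.58 with OmoMYC (adjusted p = 0.0116 and 0.0213), and PHGDH, which opens that pathway, fell by 0.44 with SNF5 (adjusted p = 0.00478). GLDC, the glycine cleavage decarboxylase, rose by 0.59 with SNF5 (adjusted p = 0.00164), and MAT2A, which makes S-adenosylmethionine, fell by 0.49 with OmoMYC (adjusted p = 0.0176). Of 39 other nucleotide metabolism genes, 9 were lower (23.1%) and 2 higher (5.13%) with SNF5, and 4 lower (10.3%) and 1 higher (2.56%) with OmoMYC. With SNF5 the lower shares of both lists were thus close to that of all genes. DCTPP1, a dCTP pyrophosphatase, fell by 0.74 and 0.47 (adjusted p = 0.003 and 0.0402). RRM2B, the alternative ribonucleotide reductase subunit, rose by 0.45 and 0.30 (adjusted p = 0.00107 and 0.0222). With SNF5, NT5C, a nucleotidase, fell by 0.64 (adjusted p = 0.0116) and NME7, of the nucleoside diphosphate kinase family, rose by 0.48 (adjusted p = 0.00402). PNP, purine nucleoside phosphorylase, fell by 0.41 with OmoMYC (adjusted p = 0.0173). Of 41 S phase and E2F target genes outside the set, 24 were lower with SNF5 (58.5%) and 19 with OmoMYC (46.3%), at medians of -0.31 and -0.30. Among them E2F2 fell by 0.83 and 0.75 (adjusted p = 0.000648 and 0.0126). Of the replicative helicase genes, MCM7 fell by 0.58 with SNF5 (adjusted p = 0.00104). MCM4 fell by 0.60 with OmoMYC (adjusted p = 0.0395). In bulk samples fewer cells in S phase and less transcription per cell cannot be told apart. The part of a change in S phase cells in the values of the nucleotide genes was not tested.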

How the data were processed

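Work started from the deposited PRO-Seq table and the MYC ChIP-Seq and ATAC-Seq peak lists. Members and lists were chosen with earlier results of these data known. For PRO-Seq, the authors trimmed with cutadapt, reverse complemented reads with FASTX, aligned to hg19 with Bowtie2 and counted per RefSeq transcript with NRSA, giving raw counts in the densest 50 bp window within 500 bp of the start and in the gene body from 1 kb past it. The deposited gene body density is a signal in reads per bp and was used to check lengths (11996 of 12011 genes within 1%). For ChIP-Seq (hg19) and ATAC-Seq (hg38), the authors aligned with Bowtie2 and called MACS2 peaks per sample, and the deposited lists give a fold ratio, −log10 p and −log10 q and no reads.

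The transcript with the most reads stood for each symbol, and genes whose counts averaged under 10 in either region were dropped. Tests used edgeR 4.0.16 (quasi-likelihood) in R 4.3.3 on all 9 samples, with gene body totals times RLE factors as offsets for both regions, a term for replicate number (the block), and p-values adjusted by Benjamini-Hochberg over 11171 genes at 0.05. Change in pausing index was tested as a region by construct interaction. Replicate numbers came from the titles. Deviations from construct means correlated at 0.854 to 0.926 in gene bodies, 0.693 to 0.936 at promoters and 0.542 to 0.845 in the pausing index between samples of the same number, and at most 0.234 otherwise, so they were taken as pairs. DESeq2 1.42.0 was an alternative. The procedure was also run on simulated counts in which a change was equal in every SNF5 sample. These do not cover ratios that differ between replicate numbers, as those of replicate 3 did. RPKM are gene body reads per kb per 1000000 effective gene body reads.

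Peak starts used RefSeq (hg19) for MYC and GENCODE GRCh38 starts for ATAC-Seq, with no conversion of coordinates. CACGTG was searched in GRCh37. IgG samples were not used here. Gene body values in every sample are given for all called genes, beyond a planned limit of the 12 lowest adjusted p. They are also given for the 8 genes with the highest fold in EGFP replicate 1 among those with a peak in both. Of each other list, the 2 genes with the largest change in each direction were eligible.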

Additional observations from a re-analysis of the deposited data

How the results depend on the processing

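Counts of genes called in gene bodies (12 with SNF5, 5 with OmoMYC) were 0 and 0 without the replicate block, where 92 and 1 of all genes were called instead of 3852 and 1388. They ran from 0 to 24 and 0 to 20 with a replicate left out, where calls over all genes ran from 785 to 6812 and from 2 to 5823. With replicates 1 and 2 summed, an alternative chosen after seeing the data, they were 1 and 0. DESeq2 gave 8 with OmoMYC. Promoter calls with SNF5 (0) became 4 with their own size factors, 0 to 6 with a replicate left out and 2 with replicates summed. Pausing index calls were 1 with SNF5 and 2 with OmoMYC. They became 2 and 1 with own size factors, 0 and 1 by DESeq2, 0 and 0 without the block, 0 to 1 and 0 to 3 with a replicate left out, 0 with SNF5 from the 2 groups alone, and 0 with OmoMYC from summed replicates. SNF5 against OmoMYC (0) gave 3 by DESeq2, 2 without the filter and 0 to 15 with a replicate left out. For most of these promoter, pausing index and SNF5 against OmoMYC settings, calls over all genes are not given here. Those counts are thus not read as results about these genes. Genes with a MYC peak in both EGFP samples (13) were 8 within 500 bp, and 13 to 26 with a sample left out. Of 183 alternatives for the 20 called values, 99 stayed called, 84 did not and 0 reversed. TMM factors and no filter kept all 20, and leaving out replicate 2 or the block kept none. Promoter reads limit the pausing index, and the peak lists hold no reads.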
